A study of Homo sapiens with 16 samples.

Results

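CDKN1A, MDM2, BTG2, PHLDA3, GDF15 and TNFRSF10B are target genes of the transcription factor p53 that act in cell cycle arrest, cell death and feedback on p53 or on survival signalling. They were taken by gene name, 6 of the 8808 genes analysed, and all 6 had a value in each of the 12 libraries. Poly(A) RNA was sequenced from U2OS cells, a human osteosarcoma line, after transfection of small interfering RNA (siRNA), with 2 libraries in each of 6 groups. The control group received siRNA against luciferase (siLuc), a firefly gene that human cells lack. The other groups, siMRG15, siMRGX, siMRGBP, siBRD8 and siTIP60, received siRNA against the mRNAs of MORF4L1 (protein MRG15), MORF4L2 (MRGX), MRGBP, BRD8 and KAT5 (TIP60). BRD8 was targeted with a single catalogue siRNA and each of the other 4 with a pool, so in siBRD8 an effect of that one sequence and of lower BRD8 cannot be told apart. No untransfected cells entered the comparison, and whether the paired libraries stem from independent cultures is not stated in the labels.

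TIP60 is the acetyltransferase of a multisubunit chromatin complex that holds MRG15, MRGX, MRGBP and BRD8, and MRG15 and MRGX also sit in other chromatin complexes. In unstressed cells p53 is held at low levels by MDM2, the ubiquitin ligase that marks it for degradation, and stress signals release it from MDM2. Released p53 binds paired copies of a short motif near its targets, among them MDM2 itself, which closes a negative feedback loop. CDKN1A encodes p21, the inhibitor of cyclin-dependent kinases that mediates p53-dependent arrest. BTG2 is an antiproliferative protein that also promotes mRNA deadenylation, PHLDA3 restrains the kinase AKT, TNFRSF10B encodes the death receptor DR5, and GDF15 is a secreted stress cytokine. Several of these genes also answer to other signals: CHOP and ATF4 of the integrated stress response act on TNFRSF10B and GDF15, and growth factor signalling acts on BTG2. TIP60 is also known to acetylate p53.

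MDM2 has an upstream and an internal start site, and p53 motif sequence lies beside the internal one, so both windows are shown. Each is the 250 bases before an annotated start on the plus strand of chromosome 12, from RefSeq (GRCh38.p14), and capitals mark a paired p53 motif. The paired motif was searched by name on both strands, as 2 adjoining half-sites of 10 bases with no spacer and at most 2 mismatches over 20 bases. The first window, chr12:68807927-68808176, belongs to the upstream start, and the second, chr12:68808767-68809016, to the internal start.
MDM2 upstream start: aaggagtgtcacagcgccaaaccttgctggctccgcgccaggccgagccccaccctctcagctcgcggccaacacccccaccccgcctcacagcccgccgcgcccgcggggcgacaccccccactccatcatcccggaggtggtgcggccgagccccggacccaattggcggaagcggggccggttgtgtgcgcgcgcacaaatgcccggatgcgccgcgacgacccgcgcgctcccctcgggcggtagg
MDM2 internal start: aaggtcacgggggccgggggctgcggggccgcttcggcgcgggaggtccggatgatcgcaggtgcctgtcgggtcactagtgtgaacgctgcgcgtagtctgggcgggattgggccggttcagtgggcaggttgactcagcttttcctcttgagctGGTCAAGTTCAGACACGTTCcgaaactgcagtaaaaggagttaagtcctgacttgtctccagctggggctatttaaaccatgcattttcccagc

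Under this allowance the internal window held 1 paired motif, from 94 to 75 bases before the start, with 2 mismatches to the consensus. The count of 1 rests on the allowance. A p53 element with more mismatches would stay in small letters, so it is not a count of the p53 elements of this promoter. The upstream window held none with these letters. Of 35116 such windows of 27305 genes, 0.561% held a paired motif under the same allowance, and the allowance was chosen with the MDM2 site known. The windows of CDKN1A, BTG2 and GDF15 held none, which says only that the letters are not in those 250 bases. Promoter sequences of 4 of the 6 genes were used here, without PHLDA3 and TNFRSF10B.

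The gene values are CPM (read counts scaled to library size) as deposited, in a table that holds only genes its authors had selected as differentially expressed. Effective library sizes ranged from 57255783 to 110402095 reads. Each siRNA lowered the mRNA it was aimed at, KAT5 for example from 19.2 ± 0.659 CPM in siLuc to 2.64 ± 0.228 CPM in siTIP60 (SD, n = 2) and BRD8 from 76.8 ± 4.66 to 18.6 ± 0.0235 CPM in siBRD8. Other subunit mRNAs were lowered too. In siTIP60 these were MORF4L1 (-0.66 on the log2 scale), MORF4L2 (-0.94), MRGBP (-1.18) and BRD8 (-0.69). In siMRGBP BRD8 was lower (-0.68) and MORF4L1 slightly lower (-0.18). MRGBP was lower in siMRG15 (-0.58) and siBRD8 (-0.43) as well, and MORF4L2 was lower in all 5 knockdowns. The siLuc libraries differed for both, at 91.4 and 115 CPM for MRGBP and 240 and 298 CPM for MORF4L2. Of 10 osteosarcoma and osteoblast markers 4 were measured, with COL1A1 at 963 to 2334 CPM, RUNX2 at 30.4 to 124 CPM, ALPL at 9.28 to 108 CPM and SPP1 at 3.92 to 14.8 CPM. Of 14 erythroid and myeloid markers of K562 cells, the line used for the 4 chromatin samples not analysed here, 4 were measured, with a summed level of 5.48 to 13.6 CPM. The highest sum was that of siTIP60 replicate 1, where HBA1 read 6.74 CPM. Of 6 epithelial markers 3 were measured, and their summed level ranged from 47.6 CPM in siMRG15 to 154 CPM in siTIP60. The part of these levels in the results below was not tested.

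The 6 genes were chosen with results of these libraries known, so their values are given as a description. Differences are on the log2(CPM + 1) scale, knockdown minus siLuc, with the standard error (SE) of a limma fit to all 12 libraries and n = 2 per group. The fit shares 1 spread per gene over the 6 groups, though noise between replicates was unequal. The median absolute log2 difference between the 2 libraries was 0.122 in siLuc and 0.127 in siMRGBP. It was between 0.0528 (siBRD8) and 0.0793 (siMRG15) in the rest, so the SE against siLuc may be too small. A gene was called where its Benjamini-Hochberg adjusted p over all 8808 genes fell under 0.05. The 5 comparisons share the siLuc libraries and are not independent of each other.

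CDKN1A, the arrest gene, stood at 2 levels: at least 502 CPM after knockdown of MRGBP, BRD8 or TIP60, and at most 261 CPM in the other groups. In siLuc the libraries read 228 and 260.5 CPM, in siMRG15 261 and 247 CPM, and in siMRGX 200.0 and 196 CPM. In siMRGBP they read 619 and 516 CPM, in siBRD8 502 and 502 CPM, and in siTIP60 635 and 600.3 CPM. The siMRG15 libraries overlapped siLuc, the siMRGX libraries lay below it, and all 6 libraries of the other 3 knockdowns lay above it. The differences from siLuc were 1.21 ± 0.09 in siMRGBP, 1.04 ± 0.09 in siBRD8 and 1.34 ± 0.09 in siTIP60, ratios of mean CPM of 2.32, 2.05 and 2.53. They were 0.06 ± 0.09 in siMRG15 and -0.30 ± 0.09 in siMRGX. The siMRGBP and siTIP60 libraries overlapped, so these groups are not ordered.

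BTG2, the other antiproliferative gene, was highest in siMRG15 and lowest in siTIP60, while CDKN1A was near its control level in siMRG15 and above it in siTIP60. The libraries read 99.5 and 108 CPM in siLuc, 228 and 238 CPM in siMRG15, and 93.8 and 92.4 CPM in siMRGX. They read 128 and 118 CPM in siMRGBP, 154 and 152 CPM in siBRD8, and 41.2 and 40.5 CPM in siTIP60. No neighbouring groups in this order overlapped. The differences from siLuc were 1.16 ± 0.06 in siMRG15 (ratio of mean CPM 2.24) and -1.32 ± 0.06 in siTIP60 (ratio 0.393). Smaller positive differences of 0.56 ± 0.06 in siBRD8 and 0.25 ± 0.06 in siMRGBP stood beside -0.15 ± 0.06 in siMRGX. Set directly against each other, siMRG15 exceeded siTIP60 by 2.48 ± 0.06 in BTG2, while the same contrast gave -1.28 ± 0.09 in CDKN1A.

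MDM2, which encodes the ligase that degrades p53, was highest in siBRD8 and lowest in siMRG15. It read 162 and 150.3 CPM in siLuc, 142 and 142 CPM in siMRG15, and 253 and 259 CPM in siMRGX. In siMRGBP it read 246 and 289.6 CPM, in siBRD8 338 and 352 CPM, and in siTIP60 208 and 212 CPM. All 8 libraries of siMRGX, siMRGBP, siBRD8 and siTIP60 lay above siLuc, and both siMRG15 libraries lay below it. The differences were 1.14 ± 0.08 in siBRD8, 0.77 ± 0.08 in siMRGBP, 0.71 ± 0.08 in siMRGX and 0.43 ± 0.08 in siTIP60, against -0.14 ± 0.08 in siMRG15. The siMRGX and siMRGBP libraries overlapped. In siMRGX, MDM2 was 1.63 times its siLuc mean while CDKN1A was 0.812 times its own. The gene sums do not separate transcripts from the upstream and internal starts shown above.

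MDM4, a relative of MDM2 that binds p53 and restrains its activity, belongs to the list of p53 regulators. It rose from 77.8 ± 0.573 CPM in siLuc to 131 ± 0.478 CPM in siMRGX (0.75 ± 0.09) and fell to 40.0 ± 0.342 CPM in siTIP60 (-0.94 ± 0.09) and 54.7 ± 9.17 CPM in siMRGBP (-0.51 ± 0.09; SD, n = 2). In siMRG15 and siBRD8 its differences were 0.00 and -0.05. MDM2 and MDM4 were thus both higher than in siLuc in siMRGX, and stood on opposite sides of it in siMRGBP and siTIP60.

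PHLDA3, the AKT inhibitor, was highest in siBRD8 and lowest in siMRGBP. The siLuc libraries read 65.2 and 58.7 CPM, those of siMRG15 83.6 and 88.2 CPM, and those of siMRGX 73.7 and 71.9 CPM. The siMRGBP libraries read 36.3 and 34.4 CPM, those of siBRD8 103 and 105 CPM, and those of siTIP60 61.6 and 63.5 CPM. The siTIP60 libraries lay within the siLuc range, those of siMRGBP below it and those of the other 3 knockdowns above it. The differences were 0.74 ± 0.06 in siBRD8, 0.47 ± 0.06 in siMRG15, 0.23 ± 0.06 in siMRGX, 0.01 ± 0.06 in siTIP60 and -0.79 ± 0.06 in siMRGBP. PHLDA3 was the only one of the 6 genes below siLuc in siMRGBP, at 0.571 times the control mean, and the direct contrast siMRGBP minus siBRD8 was -1.53 ± 0.06.

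TNFRSF10B, the death receptor gene, was above siLuc in all 10 knockdown libraries. It read 87.9 and 85.0 CPM in siLuc, 142 and 148 CPM in siMRG15, and 126 and 128 CPM in siMRGX. It read 192 and 179 CPM in siMRGBP, 114 and 113 CPM in siBRD8, and 139 and 144 CPM in siTIP60. The order ran from siBRD8 through siMRGX to siTIP60 and siMRG15, which overlapped each other, and then siMRGBP. The place of siMRGX below siTIP60, -0.15 as deposited, turned to 0.040 with TMM scaling, 0.055 with median-of-ratios scaling and 0.041 with edgeR. The differences from siLuc ranged from 0.39 ± 0.06 in siBRD8 to 1.09 ± 0.06 in siMRGBP, with 0.55 ± 0.06 in siMRGX, 0.71 ± 0.06 in siTIP60 and 0.74 ± 0.06 in siMRG15. siBRD8, in which MDM2 and PHLDA3 were at their highest, thus gave the smallest TNFRSF10B difference of the 5 knockdowns.

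GDF15, the secreted cytokine, had the fewest reads of the 6 genes, 285 to 1414 per library. It read 3.94 and 3.66 CPM in siLuc, 9.28 and 9.65 CPM in siMRG15, and 4.69 and 4.10 CPM in siMRGX. It read 4.98 and 5.01 CPM in siMRGBP, 8.48 and 7.61 CPM in siBRD8, and 15.7 and 14.6 CPM in siTIP60. All 10 knockdown libraries lay above siLuc, and no neighbouring groups in the order overlapped. The differences were 1.75 ± 0.09 in siTIP60, 1.12 ± 0.09 in siMRG15, 0.91 ± 0.09 in siBRD8, 0.32 ± 0.09 in siMRGBP and 0.17 ± 0.09 in siMRGX. The siMRGX difference of GDF15 was not called as deposited, but was 0.26 with TMM scaling, 0.30 with median-of-ratios scaling and 0.33 with edgeR on recovered reads, and called each time (adjusted p = 0.0143, 0.00651 and 0.0125). At this level the pseudocount of 1 lowers the log2 differences, and the ratio of mean CPM in siTIP60 was 3.98.

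**Figure D1:**
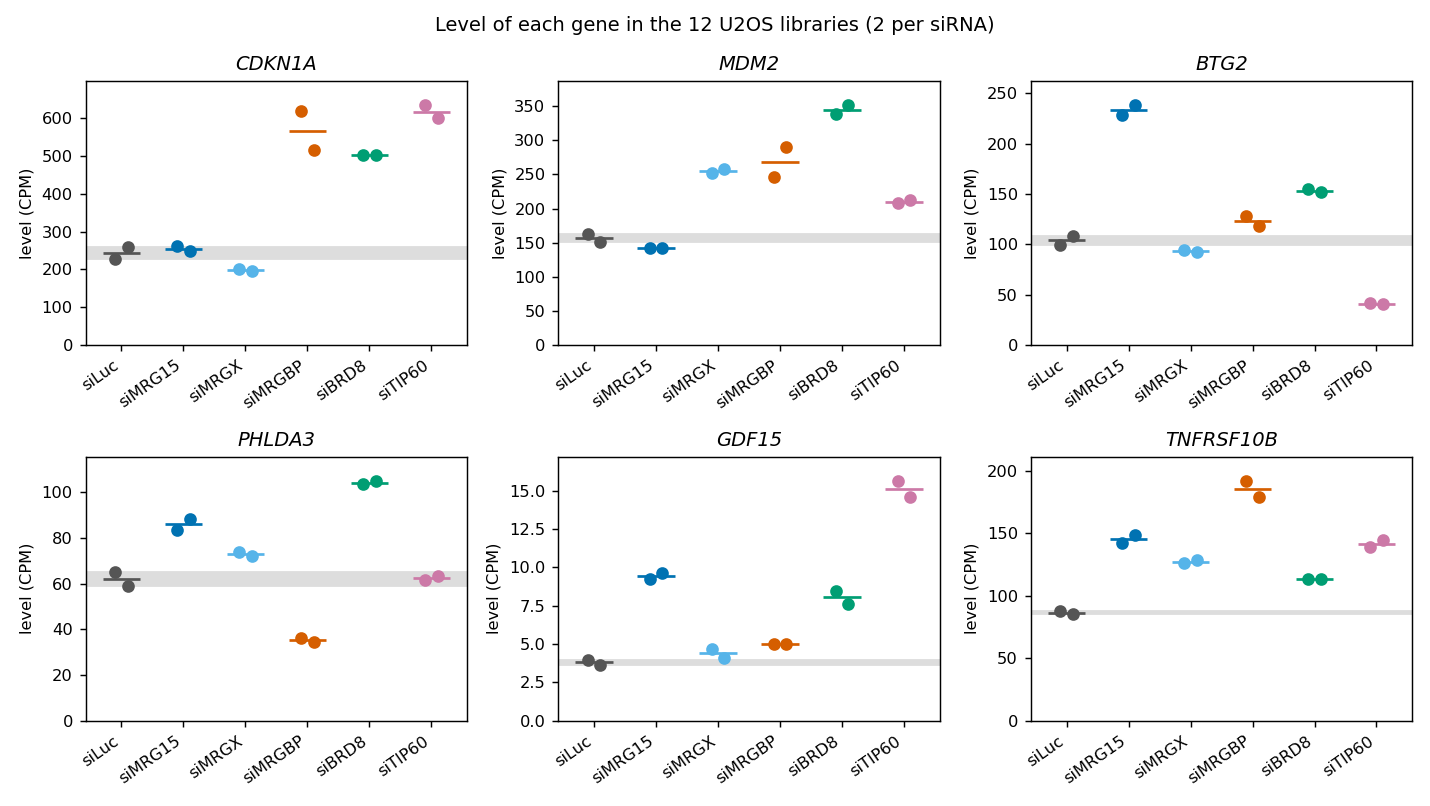
CPM of the 6 genes in each library, 1 panel per gene with its own vertical axis and 1 column per siRNA group. Points are the 2 libraries of a group and the line is their mean, and the grey band spans the siLuc libraries. The highest group differs from panel to panel: siTIP60 for GDF15, siBRD8 for MDM2 and PHLDA3, siMRG15 for BTG2 and siMRGBP for TNFRSF10B, while siMRGBP and siTIP60 overlap at the top for CDKN1A.

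Read by knockdown, siBRD8 was the one comparison in which all 6 genes were called higher, from 0.39 for TNFRSF10B to 1.14 for MDM2. Of all 8808 genes 54.2% were called in siBRD8, 28.3% higher and 25.9% lower, and the library ranges of siBRD8 and siLuc were apart in 77.3% of all genes and in all 6 here. In siMRG15 the 4 genes BTG2, GDF15, TNFRSF10B and PHLDA3 were called higher and none lower, against 69.3% of all genes called, 33.5% higher and 35.8% lower. CDKN1A and MDM2, the arrest and feedback genes, were the 2 not called there, and 5 of the 6 genes had ranges apart from siLuc, as had 82.1% of all genes. In siMRGBP 5 genes were called higher and PHLDA3 lower, against 65.0% of all genes called, 32.1% higher and 32.9% lower. All 6 had ranges apart from siLuc there, as had 76.9% of all genes. In siTIP60 CDKN1A, GDF15, TNFRSF10B and MDM2 were called higher and BTG2 lower, against 78.8% of all genes called, 41.1% higher and 37.7% lower. Ranges were apart in 5 of the 6 there and in 87.9% of all genes.

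In siMRGX 3 genes were called higher, MDM2 (0.71), TNFRSF10B (0.55) and PHLDA3 (0.23), and 2 lower, CDKN1A (-0.30) and BTG2 (-0.15). Of all genes 68.2% were called, 28.2% higher and 40.0% lower, and ranges were apart from siLuc in all 6 genes and in 83.4% of all genes. In siMRGX the calls of CDKN1A, BTG2 and PHLDA3, and the absence of one for GDF15, rest on the choice of libraries or scaling. With median-of-ratios scaling, which moved the median of all genes in siMRGX by 0.11, CDKN1A differed by -0.13 (adjusted p = 0.250, limma) and BTG2 by 0.01 (adjusted p = 0.893, limma), and without siLuc replicate 2 the number called fell from 5 to 2. Under the same scaling the whole table split into 3120 higher and 2886 lower in siMRGX, where the deposited scaling gave 2488 and 3520. The TMM and median-of-ratios factors were computed from the selected genes alone, which held 30.35% to 38.2% of a library. With 68.2% of these genes called in siMRGX, which scaling is nearer the truth was not tested. Since the 6 genes were chosen on these libraries, nothing is read from their counts beside the background.

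**Figure D2:**
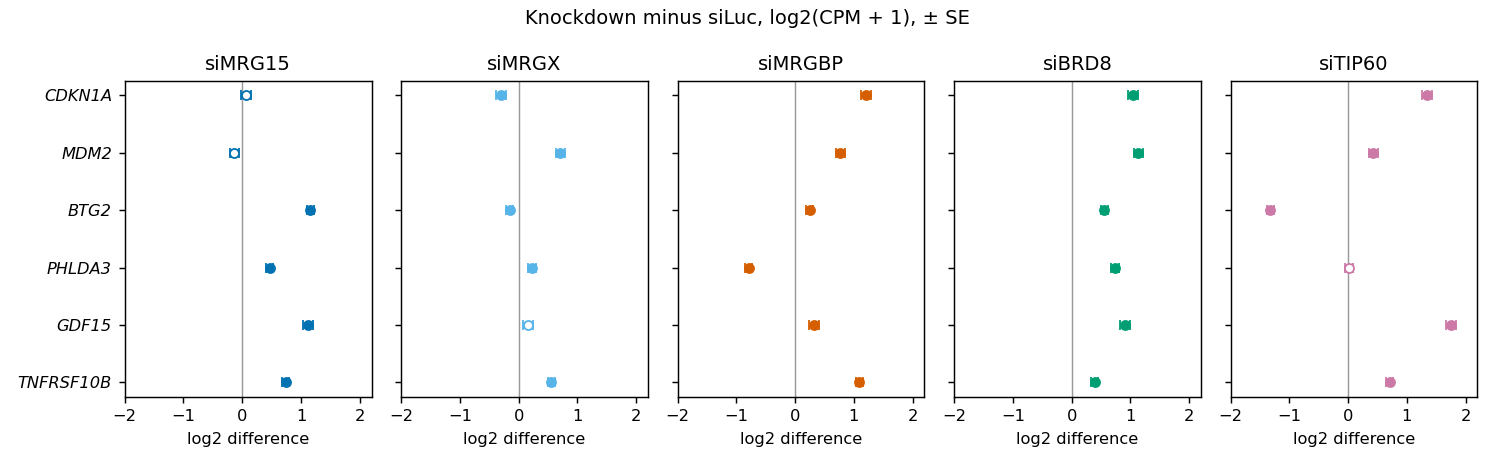
Differences of the 6 genes from siLuc on the log2(CPM + 1) scale, 1 panel per knockdown and 1 row per gene, with bars of 1 SE that are little wider than the markers (n = 2 libraries per group); filled markers were called and open ones were not. All 5 markers lie above 0 for TNFRSF10B and GDF15, while those of CDKN1A, MDM2, BTG2 and PHLDA3 fall on both sides, from -1.32 for BTG2 in siTIP60 to 1.75 for GDF15 in the same knockdown.

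Likeness among the 6 genes is given as a description. Over the 12 libraries, which fall into 6 groups, Pearson's r of log2(CPM + 1) between pairs of them ran from -0.48 for PHLDA3 with TNFRSF10B to 0.54 for CDKN1A with GDF15. CDKN1A and MDM2 had r = 0.47, and CDKN1A and BTG2 had r = -0.35. Other genes of the table were closer to each of them, but these were picked for the highest r among all 8808 genes analysed. Such a pick gives a high r by selection alone, so it cannot show whether the 6 genes go together. The genes most like CDKN1A were COL17A1 (r = 0.98), a collagen of epithelial anchoring junctions, and SERPINB7 (r = 0.97), a serine protease inhibitor. BTG2 was closest to UBE2D4 and HERC6, MDM2 to RP11-78C3.1 and RP11-1109M24.11, PHLDA3 to ADM5 and BNC2, GDF15 to DOCK6 and TP53INP2, and TNFRSF10B to STPG1 and CDR2L, with r from 0.94 to 0.99.

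The list of other p53 targets holds 57 genes, of which 29 were measured, and it was drawn up with results of these libraries known. In siMRG15 23 of the 29 rose and 4 fell, with a median difference of 0.67 where that of all genes was -0.03. In these counts rose and fell mean called, here 79.3% and 13.8% of the list beside 33.5% and 35.8% of all genes. The ferredoxin reductase FDXR rose from 56.7 ± 4.27 to 174 ± 3.05 CPM (1.60 ± 0.06), and CYFIP2 from 123 ± 0.987 to 342 ± 12.6 CPM (1.47 ± 0.06). TP53I3, a quinone oxidoreductase, rose by 1.41 ± 0.07. CDKN1A, MDM2 and PHLDA3, at 0.06, -0.14 and 0.47, were thus below that median, and BTG2, GDF15 and TNFRSF10B above it.

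In siMRGX 6 of these 29 targets rose and 16 fell, with a median of -0.18 beside -0.10 for all genes. These were 20.7% and 55.2%, beside 28.2% and 40.0% of all genes. EDA2R, a receptor of the TNF receptor family, fell from 52.9 ± 0.735 to 15.3 ± 0.0902 CPM (-1.73 ± 0.05), and the ceramidase gene ACER2 fell from 9.93 ± 0.616 to 2.06 ± 0.268 CPM (-1.84 ± 0.08). CMBL fell by 1.61 on the log2 scale. SESN2, a stress-responsive inhibitor of mTORC1 signalling that ATF4 also induces, rose by 1.18 ± 0.06.

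The other 3 knockdowns, in which CDKN1A was high, gave unlike counts for the 29 targets. In siMRGBP 10 rose and 8 fell, with a median of 0.08. These were 34.5% and 27.6%, near the 32.1% and 32.9% of all genes. The BH3-only death gene PMAIP1 rose from 52.7 ± 0.777 to 103 ± 0.838 CPM (0.95 ± 0.06), and RAP2B fell by 1.15 on the log2 scale. The number that fell in siMRGBP was 4 without siLuc replicate 1, 5 without siMRGBP replicate 1 and 4 with only the 4 libraries compared in the fit. In siBRD8 16 rose and 3 fell, with a median of 0.25. These were 55.2% and 10.3%, beside 28.3% and 25.9% of all genes. SESN2 rose by 1.43 ± 0.06 and the p53-inducible ribonucleotide reductase subunit RRM2B by 0.79 ± 0.05, while APAF1, the scaffold of the apoptosome, fell by 1.19 on the log2 scale.

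In siTIP60, where GDF15 was at its highest, 10 of the 29 rose and 14 fell, with a median of -0.12 beside 0.05 for all genes. These were 34.5% and 48.3%, beside 41.1% and 37.7% of all genes. APAF1 fell from 32.4 ± 1.16 to 9.72 ± 0.117 CPM (-1.64 ± 0.08), the metabolic regulator C12orf5, also called TIGAR, by 1.38 and the autophagy gene DRAM1 by 0.97. SESN2 rose from 55.5 ± 0.583 to 166 ± 4.62 CPM (1.57 ± 0.06). Across the 5 comparisons, which share siLuc, 3 of the 29 were called higher each time: SESN2, TP53INP1 and the BH3-only death gene BBC3. These 3 were singled out after their values were seen. How many of all genes were called higher in all 5 is not given here. In siMRGBP the differences were 0.36 for SESN2, 0.23 for TP53INP1 and 0.40 for BBC3. The last 2 were near the threshold there (limma adjusted p = 0.0416 and 0.0297).

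**Figure D3:**
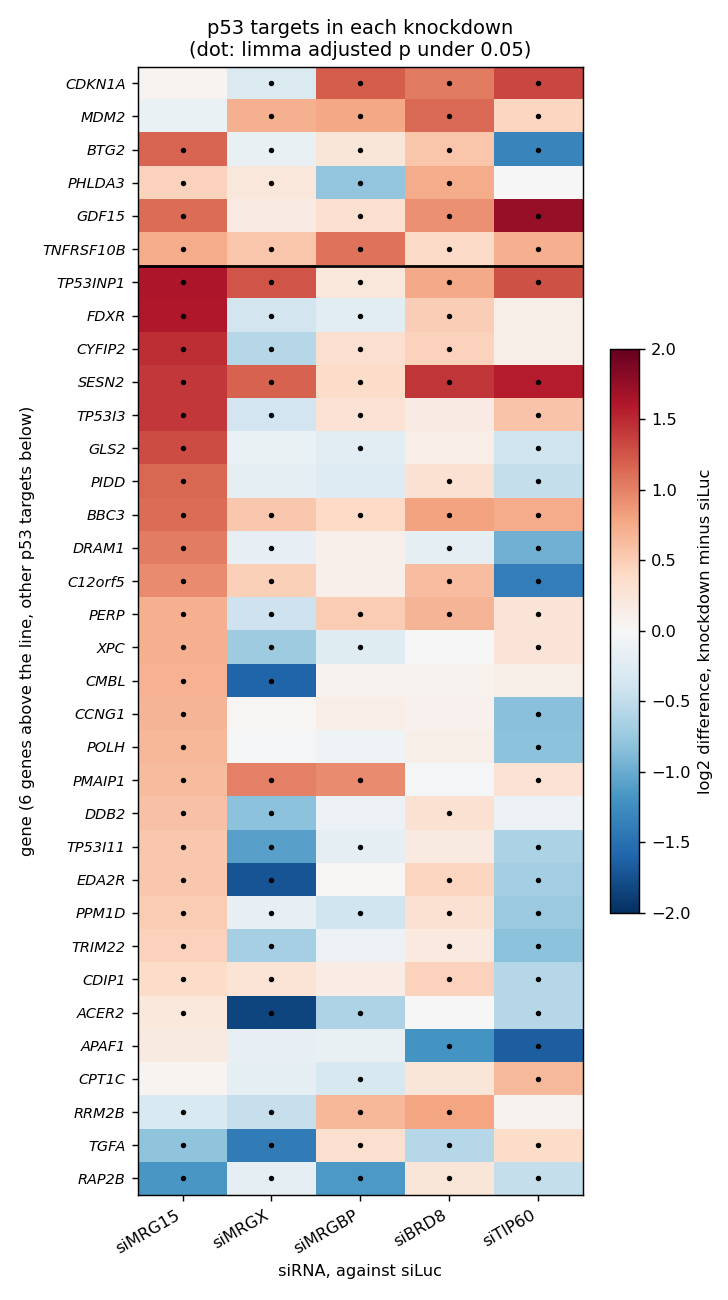
Differences from siLuc on the log2(CPM + 1) scale for the 6 genes and the other measured p53 targets, 1 of the 29 not shown, 1 row per gene and 1 column per knockdown, coloured from blue (lower than siLuc) to red (higher), with a dot where the gene was called. The siMRG15 column is mostly on the higher side (23 of the 29 called higher), the siMRGX column mostly on the lower side (16 called lower), and the siTIP60 column holds both (10 higher, 14 lower).

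Of 40 listed regulators of p53 other than MDM2, 15 were measured. Some of the 15 are also counted among the other p53 targets, so these lists are not independent of each other. The counts of those that rose and fell were 7 and 5 in siMRG15, 6 and 5 in siMRGX, 3 and 5 in siMRGBP, 4 and 4 in siBRD8, and 5 and 8 in siTIP60. In the same order 46.7%, 40%, 20%, 26.7% and 33.3% rose, beside 33.5%, 28.2%, 32.1%, 28.3% and 41.1% of all genes. The shares that fell were 33.3%, 33.3%, 33.3%, 26.7% and 53.3%, beside 35.8%, 40.0%, 32.9%, 25.9% and 37.7% of all genes. HIPK2, a kinase that phosphorylates p53, rose in all 5 comparisons, from 0.66 ± 0.08 in siMRGBP to 1.40 ± 0.08 in siTIP60. SETD8, the methyltransferase that modifies p53 at its C-terminus, also rose in all 5, by 0.65 to 1.01. The checkpoint kinase genes CHEK1 and CHEK2 fell in all 5, by 1.26 and 1.25 in siTIP60. How many of all genes changed in the same direction in all 5 is not given here, and the 5 comparisons share siLuc. TP73, which encodes a p53 relative that shares many of its targets, rose by 1.11 ± 0.08 in siMRG15 and fell by 1.70 in siTIP60.

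Cell cycle genes, many of which are lowered during p21-mediated arrest, were set beside CDKN1A. Of 39 measured genes on a list of 40, none rose and 38 fell in siTIP60, with a median of -1.50. CCNA2, the cyclin of S phase and G2, fell from 248 ± 7.56 to 47.5 ± 0.362 CPM (-2.36 ± 0.06) and the mitotic kinase AURKA by 2.01 on the log2 scale. In siMRGBP 1 rose and 30 fell, with a median of -0.44, and FOXM1, a transcription factor of G2 and mitosis, fell by 1.61 on the log2 scale. In siBRD8 11 rose and 10 fell, with a median of 0.09, and CCNE1, which encodes cyclin E1, rose by 1.41 ± 0.07. The 3 knockdowns with CDKN1A at 502 CPM or more thus had unlike levels of cell cycle mRNAs. In siMRG15 and siMRGX, with CDKN1A near or below its siLuc level, 18 and 17 fell while 9 and 6 rose. Of the list 46.2% fell in siMRG15 and 43.6% in siMRGX, beside 35.8% and 40.0% of all genes. The shares that rose there were 23.1% and 15.4%, beside 33.5% and 28.2% of all genes. In siTIP60, siMRGBP and siBRD8 97.4%, 76.9% and 25.6% fell, beside 37.7%, 32.9% and 25.9% of all genes. In siTIP60 0% and in siMRGBP 2.56% rose, beside 41.1% and 32.1% of all genes. In siBRD8 28.2% rose, beside 28.3% of all genes, so both siBRD8 shares were near those of all genes. In bulk RNA fewer cycling cells and less mRNA per cell cannot be told apart.

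Stress genes linked to ATF4 and CHOP of the integrated stress response were set beside GDF15 and TNFRSF10B, which that response also induces. Of 21 measured genes on a list of 27, 20 rose and 1 fell in siTIP60, with a median of 1.12. The asparagine synthetase gene ASNS rose from 63.2 ± 8.09 to 291 ± 15.8 CPM (2.19 ± 0.08), and CHAC1, a glutathione-degrading enzyme, from 6.31 ± 0.00904 to 37.4 ± 0.702 CPM (2.40 ± 0.07). In siMRGX 16 rose and 1 fell (median 0.61), in siMRGBP 16 and 2 (median 0.48), and in siBRD8 16 and 0 (median 0.41). The shares that rose in siTIP60, siMRGX, siMRGBP and siBRD8 were 95.2%, 76.2%, 76.2% and 76.2%, beside 41.1%, 28.2%, 32.1% and 28.3% of all genes. In siMRG15 5 rose and 13 fell, with a median of -0.31, which were 23.8% and 61.9% beside 33.5% and 35.8% of all genes. The endoplasmic reticulum chaperone HSPA5 fell there from 644 ± 84.0 to 190 ± 18.7 CPM (-1.75 ± 0.10). HSPA5 was also the 1 gene of the list that fell in siTIP60 (-0.53) and in siMRGX (-0.77), so it does not stand for the list. Among the 5 that rose in siMRG15 were SESN2 (1.42) and ASNS (0.80). SESN2 is also counted among the other p53 targets. GDF15 and TNFRSF10B were higher than siLuc in siMRG15 too, by 1.12 and 0.74. The part of the cell cycle and stress gene levels in the values of the 6 genes was not tested.

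**Figure D4:**
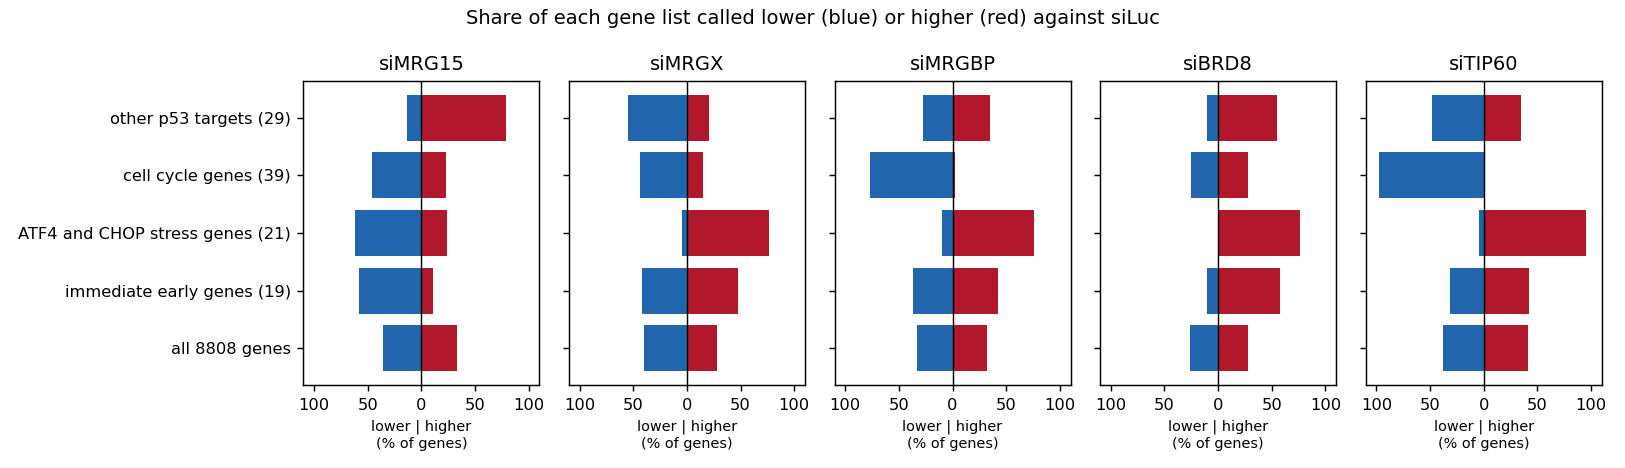
Percent of the measured genes of 4 lists, and of all 8808 genes, that were called lower (blue, to the left) or higher (red, to the right) than siLuc, 1 panel per knockdown, with the number measured in brackets. The red bar of the other p53 targets is longest in siMRG15 (23 of 29), the blue bar of the cell cycle genes in siTIP60 (38 of 39), and the ATF4 and CHOP genes lie mostly to the right except in siMRG15 (5 higher, 13 lower).

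Transcripts of 5 of the 6 genes appear in the authors' deposited table of transcripts, which marks each transcript as up or down or neither in each knockdown and gives no values. The rule behind the marks is not given in the sources used here. For CDKN1A the authors' deposited table lists 4 transcripts, with 3 marked up in siTIP60, 3 in siBRD8, 2 in siMRGBP and 1 in siMRG15, and in siMRGX 1 up and 1 down. For MDM2 the authors' deposited table lists 9 transcripts, with 4 marked up in siBRD8, 1 in siMRGBP and 1 in siMRGX, and 2 marked down in siMRG15. In siTIP60 it marks 2 MDM2 transcripts up and 1 down, so the transcripts of the gene bear both marks there. For BTG2 the authors' deposited table marks both transcripts up in siMRG15 and 1 of them down in siTIP60. For TNFRSF10B it lists 5 transcripts, with 2 marked up in siMRGBP, 2 up and 1 down in siTIP60, and in siBRD8 1 marked down although the gene's summed level was higher there. For GDF15 the authors' deposited table marks both transcripts up in siTIP60, and 1 up in siMRG15 and in siBRD8. Over all 25895 transcripts of the authors' deposited table, 20.1% were marked up and 17.9% down in siTIP60, 5.39% and 5.09% in siBRD8, 9.99% and 5.83% in siMRGBP, 8.19% and 14.1% in siMRGX, and 7.29% and 13.0% in siMRG15.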

How the data were processed

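The authors deposited a table of CPM (counts scaled to library size) per gene and library. Per the submitters' processing notes the build was hg19 and the tools were MACS2 2.0.10, Bowtie2 2.1.6, Subread 2.0.0, featureCounts and minimap2 2.17-r941, without their roles. How genes were selected, how library size was scaled and whether strand was counted: not given in the sources. Of 8813 rows, 5 repeats were removed. In each of the 12 libraries 100% of CPM values were whole multiples of 1 read (tolerance 0.01 reads), which gave the library sizes.

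CPM are not counts, so the test was limma 3.58.1 with an intensity trend (R 4.3.3) for log2(CPM + 1), fitting a mean per group over the 12 libraries without replicate block or filter. The Benjamini-Hochberg adjustment of two-sided p-values covered all 8808 genes, and the threshold was 0.05. The spread behind the p-values is that between libraries and may be technical. edgeR 4.0.16 on the recovered reads was an alternative, and further scalings, pseudocounts, filters and left-out libraries were tried. The fit was also run on simulated reads in which few genes changed, and only in siTIP60. That setting differs from these data, where most genes were called, so it cannot show the error rates here. The deposited marks in the transcript table, values of 0 or 1 by the authors, were only counted.

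The 6 genes and the gene lists were chosen with earlier results of these data known. Besides them, up to 4 genes per list and knockdown with the smallest adjusted p, MDM4, the siRNA targets and the 2 genes most correlated with each of the 6 could be named, except a few genes not reported here. Promoter windows came from RefSeq (GRCh38.p14), which differs from the build of the files.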

Additional observations from a re-analysis of the deposited data

How the results depend on the processing

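The calls of the 6 genes in siMRGX depend most on the processing. Leaving out 1 library at a time gave 2 to 5 called in siMRGX, with 2 without siLuc replicate 2 and 3 without either siMRGX library. The ranges were 4 to 5 in siMRG15, 6 to 6 in siMRGBP and siBRD8 and 5 to 5 in siTIP60, and the fifth call in siMRG15 is MDM2, lower without siMRGBP replicate 1 or 2 (limma adjusted p = 0.0475 and 0.0474). The library left with no partner was assumed to vary like the other groups. Other p53 targets called lower in siMRGBP, 8 as reported, were 4 to 9 with a library left out and 4 with only the 4 libraries compared in the fit. BTG2 in siMRGX turned to 0.011 with median-of-ratios factors. TNFRSF10B in siMRGX minus siTIP60, -0.15 as deposited, turned to 0.040 with TMM factors, 0.055 with median-of-ratios factors and 0.041 with edgeR. Fitted on the 4 libraries alone, BTG2 and GDF15 in siMRGBP missed the threshold (limma adjusted p = 0.0663 and 0.0597). The causes were not tested. The replicate numbers did not pair the libraries: the deviations of same-numbered libraries correlated above 0.1 in 3 of 15 pairs of groups (-0.47 to 0.18). With the replicate block BTG2 in siMRGX missed the threshold (limma adjusted p = 0.0573), and 6029, 5907, 5629, 4632 and 6869 genes were called in siMRG15, siMRGX, siMRGBP, siBRD8 and siTIP60, beside 6100, 6008, 5723, 4771 and 6940 without it. GDF15 had the fewest reads of the 6 genes, and depth as a limit was not tested.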

Other observations

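BTG2 is also an early response gene to growth factors, so other immediate early genes were counted beside it. Of 19 measured genes on a list of 28, 2 rose and 11 fell in siMRG15, where BTG2 was highest, with a median log2 difference from siLuc of -0.31. These were 10.5% and 57.9% in siMRG15, beside 33.5% and 35.8% of all genes. FOS fell there from 106 ± 11.2 to 46.5 ± 2.53 CPM (-1.17 ± 0.10, n = 2) and IER3 by 0.95. In siTIP60, where BTG2 was lowest, 8 rose and 6 fell, with a median of -0.01. These were 42.1% and 31.6% in siTIP60, near the 41.1% and 37.7% of all genes. BTG1, the paralog of BTG2, rose there from 19.7 ± 2.04 to 49.5 ± 2.48 CPM (1.29 ± 0.08), so the 2 paralogs stood on opposite sides of siLuc. In siBRD8 11 rose and 2 fell, with a median of 0.37, and MYC rose by 1.15 ± 0.08. The counts in siBRD8 were 57.9% and 10.5% of the list, beside 28.3% and 25.9% of all genes.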
